A study of Homo sapiens with 4 samples.

Results

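The Kruppel-like factors (KLF) are transcription factors that share zinc fingers at the C-terminal end of the protein and bind GC boxes and CACCC boxes in promoters. The members differ in the rest of the protein and so in the partners they bring to a gene. KLF2, KLF4, KLF5 and KLF6 recruit acetylases such as p300 and mostly activate, KLF3 binds the corepressor CtBP, and KLF9, KLF10, KLF11, KLF13 and KLF14 bind SIN3A. In liver and in epithelium they are known for roles in proliferation, differentiation, metabolism and the response to injury, and several are induced quickly by growth factors and stress.

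The 10 genes KLF2, KLF3, KLF4, KLF5, KLF6, KLF9, KLF10, KLF11, KLF13 and KLF14 were chosen by symbol among the 59050 gene symbols of the deposited counts. No measured value entered the rule, but the genes were chosen with earlier results of these data known. The libraries were labelled as HepG2, a human cell line from a liver tumor, with 2 libraries of untreated cells (0 h) and 2 of cells given doxorubicin, a DNA-damaging drug used to induce p53, at 1 ug/ml for 24 h. By these labels the groups differ in both drug and time, and the 2 cannot be told apart. All 4 libraries were described as poly(A)-selected RNA of the same line, so by the labels 1 cell line stands behind both groups. One label of the treated libraries gives p53-miRNA as the treatment, and the titles and the treatment protocol were followed instead. Levels are given as CPM, the counts of a gene per 1000000 counts of its library, which held between 27572740 and 36272180 counts. Where 2 values are given for a group, replicate 1 comes before replicate 2.

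Untreated replicate 2 stood apart from the other libraries. It had a count on 31258 genes against 25734 to 27609 in the others, and the summed CPM of 89 genes of replication-dependent histones, whose mRNAs mostly lack a poly(A) tail, was 3310 against 459 to 565. It was the highest of the 4 libraries in 36.6% of the 17479 genes kept for testing and the lowest in 45.0%. Each comparison below was therefore made with and without it, and the part of these differences in the results was not tested. Of 12 hepatocyte genes, 7 stayed under a CPM of 1 in all 4 libraries, and ALB had between 0 and 3 counts. These low levels did not bear out the liver identity, which rests on the labels alone. The list summed to a CPM of 1.02 and 5.16 in the untreated libraries and 6.12 and 4.79 in the doxorubicin libraries. FGB (0.19 and 0.17 without drug against 3.09 and 2.54 with it) and HNF4A (0.58 and 0.28 against 1.92 and 1.2) were higher in both treated libraries, while AFP and TF were highest in untreated replicate 2. In the comparison below, the log2 fold change of FGB was 3.76 with all libraries. It was 3.70 without untreated replicate 2 and 3.91 without untreated replicate 1. That of HNF4A was 1.70, 1.29 and 2.41 in the same fits. Of 7 genes of squamous or basal epithelium, KRT17 (929 and 1223 against 1587 and 1322) and KRT14 (2.81 and 2.39 against 7.43 and 5.15) were higher in both treated libraries and SFN (252 and 723 against 173 and 153) was lower in both. In the same fits the log2 fold change was 0.28, 0.50 and 0.17 for KRT17 and 1.12, 1.02 and 1.32 for KRT14. That of SFN was -1.73, -0.77 and -2.23. KRT5 and TP63 stayed under a CPM of 1, and the list summed to a CPM between 1183 and 1951. The 5 fibroblast genes summed to a CPM between 120 and 160. DCN had 0.47 and 0.62 against 7.69 and 6.85, while COL3A1 (70.0 and 69.1 against 55.8 and 46.0) was lower in both treated libraries. Their log2 fold changes in the same fits were 3.58, 3.80 and 3.45 for DCN and -0.60, -0.60 and -0.52 for COL3A1. COL1A1 (84.4 and 46.4 against 79.2 and 64.3) and PDGFRB (5.27 and 3.71 against 5.16 and 4.32) overlapped between the groups. Their log2 fold changes were -0.02, -0.38 and 0.55 for COL1A1 and -0.07, -0.29 and 0.27 for PDGFRB. COL1A2 had at most 2 counts. The part of these markers in the KLF values was not tested. The 5 blood genes summed to at most 0.485. In bulk RNA, fewer cells of a type and less RNA per cell cannot be told apart.

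Promoter sequence is shown for KLF6 and KLF2, the members with the largest positive fold changes in the comparison below. It is also shown for KLF4 and KLF14, whose direction turned when untreated replicate 2 was left out. The direction of KLF10 and KLF13 turned as well, and their promoters are not shown. Each stretch holds 150 bases upstream of the RefSeq start site (GRCh38.p14) and outside GENCODE exons, ending at that site or, for KLF6, 72 bases before it, and is written 5′ to 3′ on the strand of the gene. Capitals mark GC boxes (GGGCGG) and CACCC boxes on either strand, the letters that KLF and Sp proteins bind. The KLF6 stretch (chr10:3785282-3785431, minus strand) held 1 GC box, the KLF2 stretch (chr19:16324676-16324825, plus strand) 2, the KLF4 stretch (chr9:107489770-107489919, minus strand) 2 and the KLF14 stretch (chr7:130734208-130734357, minus strand) 3 and 1 CACCC box. The KLF4 stretch lies inside the GENCODE span of the gene, which starts farther upstream.
KLF6: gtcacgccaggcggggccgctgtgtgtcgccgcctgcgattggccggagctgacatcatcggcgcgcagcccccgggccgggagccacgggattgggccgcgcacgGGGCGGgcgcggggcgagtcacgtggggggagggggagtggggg
KLF2: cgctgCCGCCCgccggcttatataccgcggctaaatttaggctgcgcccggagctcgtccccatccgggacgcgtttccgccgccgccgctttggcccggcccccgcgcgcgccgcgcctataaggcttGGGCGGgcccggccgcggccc
KLF4: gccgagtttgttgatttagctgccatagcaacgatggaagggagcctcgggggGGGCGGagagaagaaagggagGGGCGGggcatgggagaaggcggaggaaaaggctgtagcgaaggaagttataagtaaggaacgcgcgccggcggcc
KLF14: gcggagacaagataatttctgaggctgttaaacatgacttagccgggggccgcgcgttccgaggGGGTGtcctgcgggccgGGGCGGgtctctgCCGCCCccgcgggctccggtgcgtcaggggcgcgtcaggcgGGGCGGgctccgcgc

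RefSeq windows of 250 bases before to 50 after the start site were found for 8 of the 10 genes, and motifs were searched on both strands. A GC box was present in 6 of the 8 windows, with 6 matches in KLF2 and 4 each in KLF4 and KLF14, against 54.7% of 17487 promoters of the same length. A CACCC box was present in 3 of the 8 (KLF5, KLF13 and KLF14), against 61.9% of all. A CCAAT box was present in KLF6, KLF9 and KLF13 (36.3% of all), and the MEF2 site in KLF2 (2.23% of all), where MEF2 factors are known activators. The single p53 decamer, the AP-1 site (TGANTCA), the cAMP response element (TGACGTCA) and the CArG box of serum response factor had 0 matches in the 8 windows, against 6.16%, 6.68%, 2.39% and 1.16% of all promoters. GC and CACCC boxes can share letters, and a match is a string of letters and not a measured binding site.

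To compare the genes with each other, CPM was divided by the exon length of GENCODE release 44 in kb. KLF5, known for proliferating basal epithelium, had the highest level in each of the 4 libraries, with 41.9 and 35.8 CPM per kb without drug and 45.0 and 56.5 with doxorubicin. KLF10 came after it in every library (14.7 to 32.6 CPM per kb), and the ranges of KLF5 and KLF10 did not overlap. KLF4 ranged from 6.85 to 31.2 and KLF6 from 7.21 to 16.5, and neither could be separated from its neighbour in the order. KLF11 (4.97 to 8.02), KLF3 (2.67 to 7.78) and KLF9 (3.42 to 7.22) followed with ranges that overlapped each other. KLF13 (0.53 to 2.05) and KLF2 (0.37 to 2.29) lay below these, without overlap with KLF9. The lowest mean level was that of KLF14, at 0.03 to 0.72 CPM per kb, and its range overlapped that of KLF2.

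Among all 18 KLF genes, KLF5 made up 40.5% and 24.5% of the summed CPM per kb without drug and 34.3% and 35.0% with doxorubicin. The share of KLF4 was 6.62% and 21.4% without drug against 9.53% and 8.82% with it, so that in untreated replicate 2 it nearly reached KLF5. The share of KLF6 was 6.97% and 6.49% in untreated cells and 9.89% and 10.2% with doxorubicin, and was higher in both treated libraries. Summed over the 10 genes, the CPM was 356 and 488 without drug against 467 and 590 with it, and the groups overlapped.

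**Figure D1:**
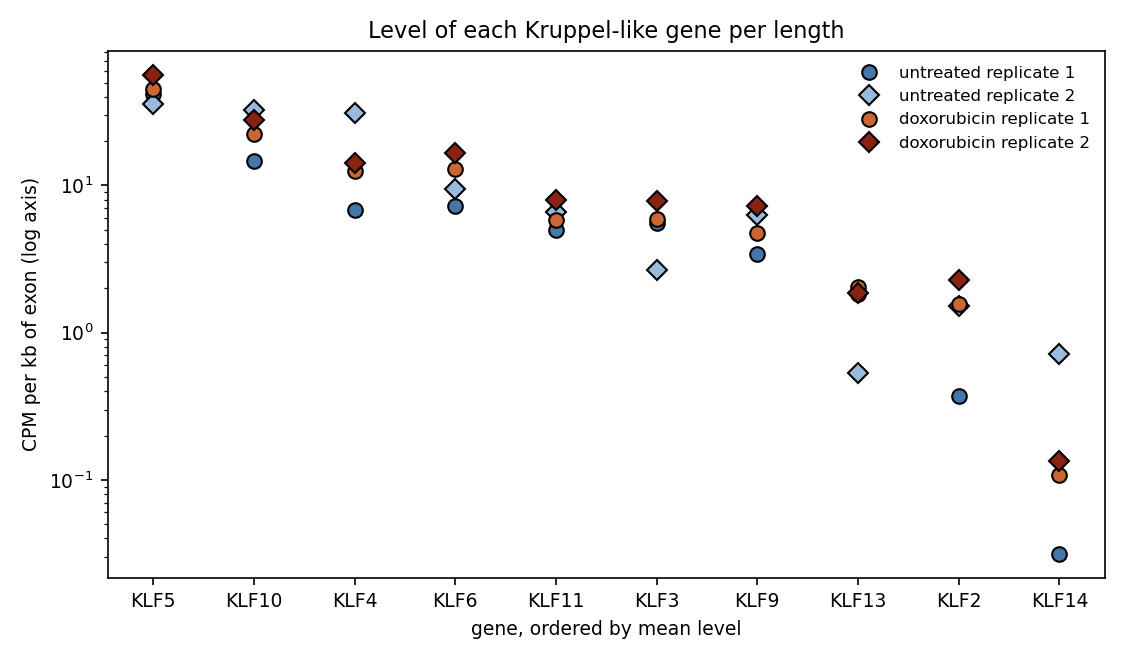
Level of each of the 10 genes in CPM per kb of exon (log axis), with 1 point per library, circles for replicate 1 and diamonds for replicate 2, ordered by the mean of the 4 libraries. KLF5 lies between 35.8 and 56.5 CPM per kb, above every other gene, and KLF14 has the lowest mean, with its highest point (0.72) in untreated replicate 2.

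For the comparison of doxorubicin with no treatment, edgeR's quasi-likelihood test was fitted on all genes. Following the methods of the study, a gene was called at an adjusted p below 0.05 with an absolute log2 fold change (log2FC) of 1 or more. The study reported both raised and lowered mRNAs at these thresholds with edgeR, without naming the form of its test. The fit used here called no gene with all libraries, and the cause of this difference was not tested. The filter on low counts kept 10 of the 10 KLF genes. None of the 10 was called (0 of 10, background 0.00% of 17479 genes tested), 0 had an unadjusted p under 0.05 (4.02% of all genes, or 703), and 0 were called by the exact test or the likelihood ratio test of edgeR or by DESeq2. The log2FC was above 0 for 7 of the 10 (50.8% of all genes) with a median of 0.18 against 0.01 over all genes. By partner, 3 of the 4 acetylase-recruiting genes lay above 0 (median 0.44) and 3 of the 5 SIN3A-binding genes (median 0.10). These medians were 0.85 and 0.63 without untreated replicate 2 and 0.33 and -0.16 without untreated replicate 1. Scaling by library size alone in place of TMM moved the median of all genes to 0.17 and that of the 10 genes to 0.34. CPM is scaled by the total alone, so differences in CPM between the groups hold relative to this shift.

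Both doxorubicin libraries lay above both untreated libraries in CPM for 5 of the 10 genes, KLF2, KLF3, KLF5, KLF6 and KLF13, where 30.3% of all genes did, and both lay below for 0 (11.5% of all). After TMM scaling KLF6 alone remained of the 5 (21.3% of all). Against untreated replicate 1 alone, both doxorubicin libraries had the higher CPM for 10 of 10 genes (53.1% of all), and for 7 of 10 after TMM scaling (40.0% of all), where KLF3, KLF5 and KLF13 overlapped. In the fit without untreated replicate 2, the log2FC was above 0 for 9 of 10 genes (54.3% of all), the median was 0.64 against 0.05 over all genes, KLF2 was called (1 of 10, with 4.53% of all genes called in either direction), and KLF2, KLF4 and KLF6 had an adjusted p under 0.05 with a positive fold change (4.77% of all). That fit holds 1 untreated library, which is assumed to vary like the doxorubicin pair. In the fit without untreated replicate 1, the log2FC was above 0 for 5 of 10 genes (50.8% of all) and the median was 0.12 against 0.03 over all genes. The same assumption without untreated replicate 1 called 20.6% of all genes as higher and 21.8% as lower, among them KLF3 and KLF13 as higher and KLF4 and KLF14 as lower. The sign of the fold change differed between the fits without untreated replicate 1 and without untreated replicate 2 for 6 of the 10 genes (45.9% of all genes).

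**Figure D2:**
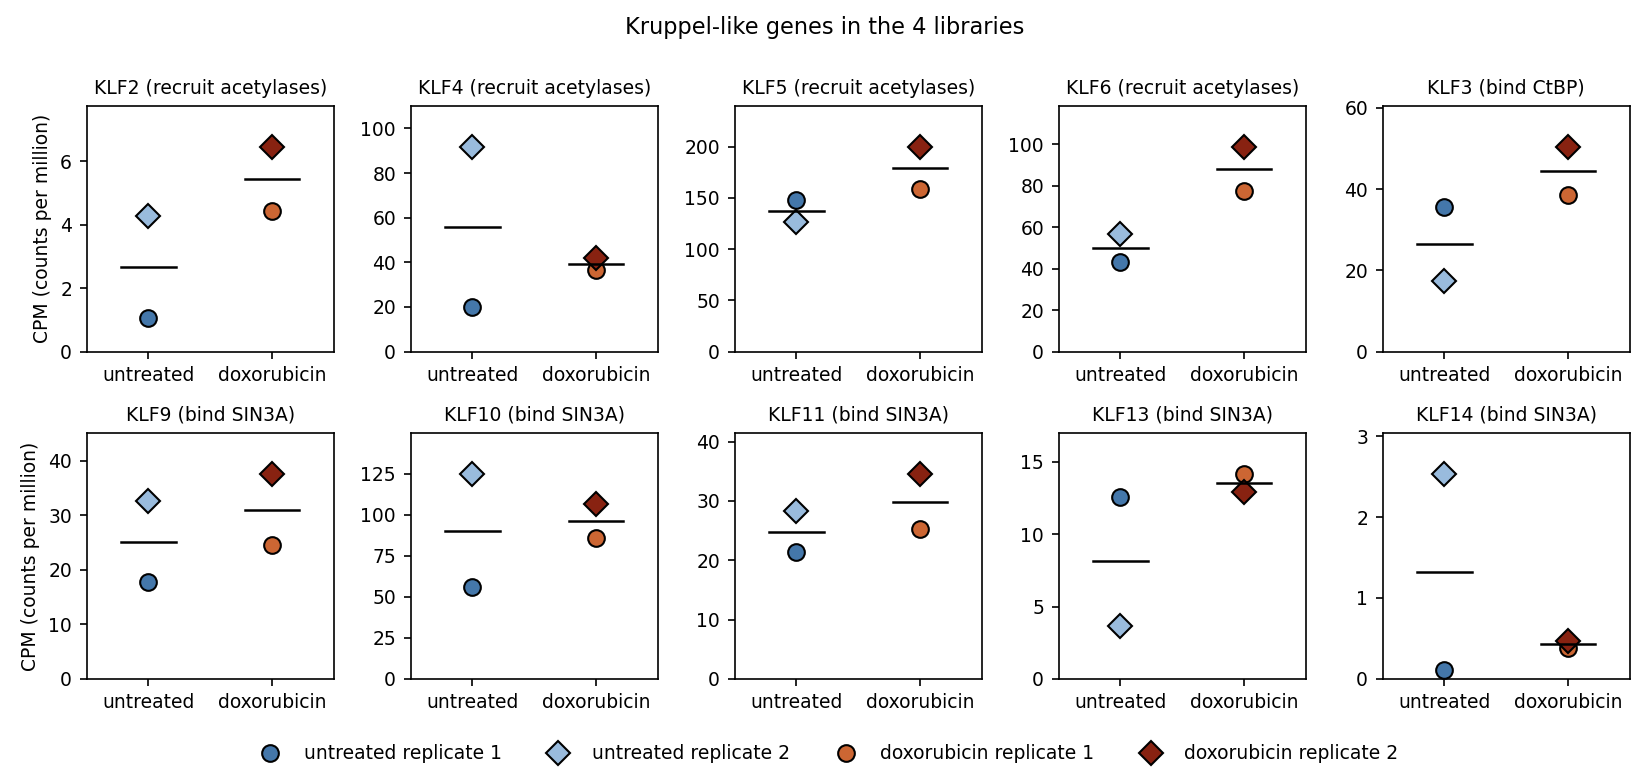
CPM of the 10 genes in the 4 libraries (1 panel per gene, linear axes from 0, circles for replicate 1, diamonds for replicate 2, black lines for the mean of the 2 libraries). Only KLF6 keeps both doxorubicin points above both untreated points after TMM scaling as well, and KLF4, KLF10 and KLF14 have untreated replicate 2 as their highest point.

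KLF6 (ENSG00000067082, chromosome 10, 3775996 to 3785281, GRCh38) encodes a broadly expressed activator known from liver injury and as a candidate tumor suppressor. Its CPM was 43.1 and 56.7 without drug and 77.7 and 98.8 with doxorubicin. Both treated libraries were higher than both untreated ones, by 1.37-fold at the closest pair and 2.29-fold at the widest. The log2FC was 0.66 (standard error (SE) 0.35, adjusted p 0.796, edgeR with Benjamini-Hochberg adjustment), which did not pass the test. Without untreated replicate 2 it was 0.88 (SE 0.24, adjusted p 0.00937), below the fold threshold, and without untreated replicate 1 it was 0.55 (SE 0.24, adjusted p 0.0431). In the latter fit 27.7% of all genes had an adjusted p under 0.05 with a positive log2FC, against 4.77% in the former. The untreated libraries of KLF6 were 1.32-fold apart and its treated libraries 1.27-fold.

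KLF2 (ENSG00000127528, chromosome 19, 16324826 to 16328685) is known from endothelium, where blood flow induces it, and from resting T cells. Its count was 38 and 124 without drug and 152 and 178 with doxorubicin, a CPM of 1.05 and 4.29 against 4.43 and 6.46. Untreated replicate 1 was the low library, while untreated replicate 2 lay close to doxorubicin replicate 1 at 4.53 against 4.34 after TMM scaling. The 95% Poisson intervals of these last libraries (3.57 to 5.12 and 3.75 to 5.19 CPM) overlapped, and that of untreated replicate 1 (0.74 to 1.44) was apart from all others. The intervals cover counting error only. With all 4 libraries the log2FC was 0.87 (SE 0.78, adjusted p 0.809, edgeR with Benjamini-Hochberg adjustment). Leaving out untreated replicate 2 gave 2.22 (SE 0.39, adjusted p 3.9e-06), and KLF2 was called, as it was there with RLE factors (2.18), library size alone (2.37) and DESeq2 (2.16). Without untreated replicate 1 it was 0.25 (SE 0.34), so the size depended on which untreated library was used. Of 4 endothelial genes, PECAM1 stayed between a CPM of 0.94 and 1.16 and VWF and KDR under 1, and the list summed to 9.79 and 5.13 without drug against 2.97 and 2.43 with it. CDH5 had 8.52 and 3.29 against 1.46 and 0.943, lower in both treated libraries. Its log2FC was -2.44 with all libraries, -2.95 without untreated replicate 2 and -1.52 without untreated replicate 1. The part of other cells in the KLF2 values was not tested.

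KLF4 (ENSG00000136826, chromosome 9, 107484852 to 107490482) promotes epithelial differentiation and cell cycle arrest and is one of the factors used to reprogram cells to pluripotency. Its CPM was 20.1 and 91.7 without drug and 36.7 and 41.9 with doxorubicin. The treated libraries lay between the untreated ones, 1.83-fold and 2.08-fold over untreated replicate 1 and at 0.40 and 0.46 of untreated replicate 2. The untreated libraries were 4.56-fold apart and the treated ones 1.14-fold. The log2FC was -0.66 (SE 0.72, adjusted p 0.823, edgeR) with all libraries, 0.82 (SE 0.26, adjusted p 0.0404, and 0.0559 with RLE factors) without untreated replicate 2 and -1.31 (SE 0.24) without untreated replicate 1. The direction of KLF4 thus depended on which untreated library was used.

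KLF5 (ENSG00000102554, chromosome 13, 73054976 to 73077541) had a CPM of 148 and 126 without drug and 159 and 200 with doxorubicin. The treated libraries were the higher ones in CPM, by 1.08-fold at the closest pair, while after TMM scaling untreated replicate 1 (157) passed doxorubicin replicate 1 (156). Its log2FC was 0.23 (SE 0.30) with all libraries, 0.13 (SE 0.22) without untreated replicate 2 and 0.42 (SE 0.23) without untreated replicate 1. The adjusted p was 0.840, 0.818 and 0.110 in these edgeR fits.

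KLF3 (ENSG00000109787, chromosome 4, 38664197 to 38701517) encodes a repressor known from red blood cell and fat cell development. Its CPM was 35.7 and 17.2 without drug and 38.6 and 50.3 with doxorubicin, so untreated replicate 2 was the low library. The log2FC of 0.58 (SE 0.48, adjusted p 0.797, edgeR) became 0.17 (SE 0.25) without that library and 1.28 (SE 0.26) without untreated replicate 1. KLF3 shares 265 exon bases with KLF3-AS1 on the other strand, and the use of strand in counting was not given in the sources used here. KLF3-AS1 had a CPM of 0.66 and 2.53 without drug against 1.02 and 0.91 with it, small beside KLF3 and highest in untreated replicate 2, where KLF3 was lowest.

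**Figure D3:**
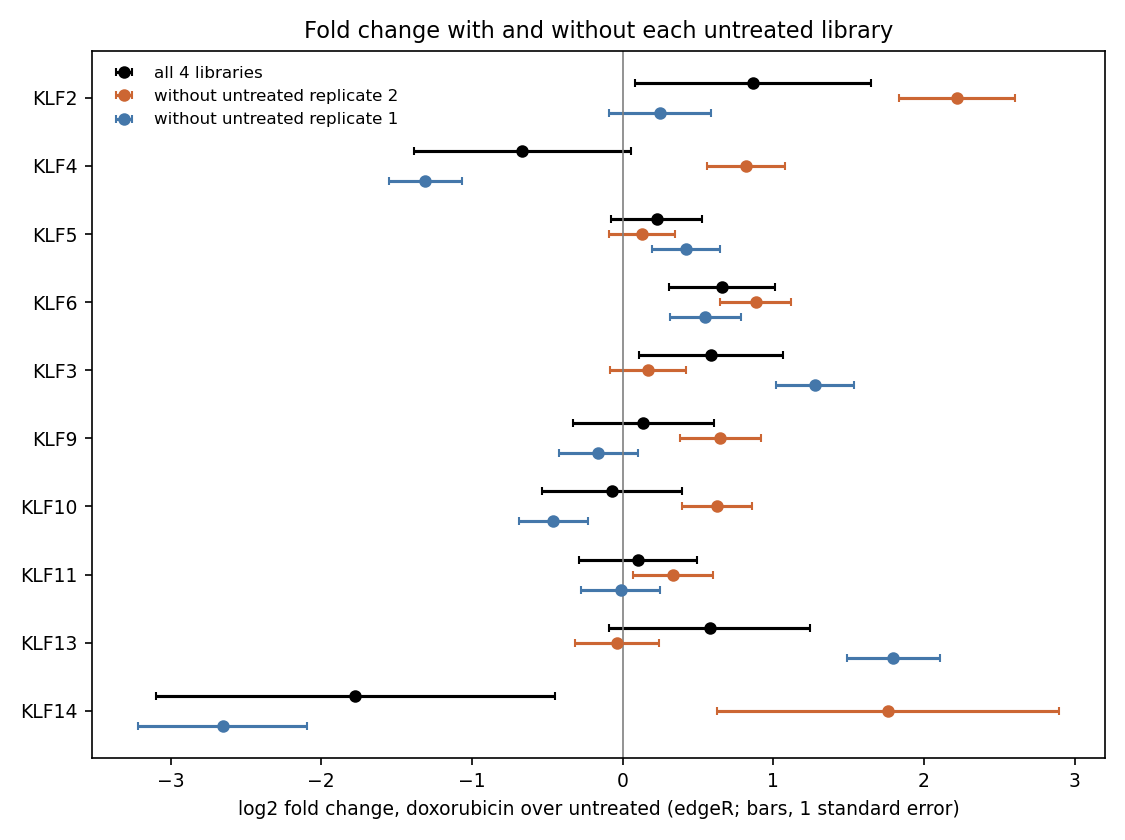
Log2FC of the 10 genes (doxorubicin over untreated, edgeR, bars of 1 SE) with all 4 libraries and without each untreated library. KLF2, KLF3, KLF5 and KLF6 stay above 0 in the 3 fits, while KLF14 moves from -2.65 to 1.76 and KLF4 from -1.31 to 0.82.

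Of the SIN3A-binding members, KLF10 (ENSG00000155090, chromosome 8, 102648784 to 102655725) is an early response gene of TGF-beta. Its CPM was 56.2 and 125 without drug and 85.9 and 107 with doxorubicin. As for KLF4, the treated libraries lay between the untreated ones, which were 2.22-fold apart. The log2FC was -0.07 (SE 0.46, adjusted p 0.971, edgeR), and it was 0.63 (SE 0.23, adjusted p 0.0932) without untreated replicate 2 and -0.46 (SE 0.23, adjusted p 0.0712) without untreated replicate 1. KLF11 (ENSG00000172059, chromosome 2, 10042849 to 10054836), its closest relative, had a CPM of 21.4 and 28.3 without drug against 25.2 and 34.5 with it. The groups overlapped, and its log2FC of 0.10 (SE 0.39) was 0.33 (SE 0.27) without untreated replicate 2 and -0.01 (SE 0.26) without untreated replicate 1.

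KLF9 (ENSG00000119138, chromosome 9, 70384604 to 70414657) is a target of glucocorticoid and thyroid hormone receptors. Its CPM was 17.8 and 32.6 without drug and 24.6 and 37.5 with doxorubicin. In both groups replicate 2 was the higher library, by 1.83-fold in untreated and 1.53-fold in treated cells, the widest gap of the 10 genes between the treated libraries. Its log2FC was 0.14 (SE 0.47, adjusted p 0.937, edgeR), with 0.65 (SE 0.27, adjusted p 0.147) without untreated replicate 2 and -0.16 (SE 0.26) without untreated replicate 1.

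KLF13 (ENSG00000169926, chromosome 15, 31326835 to 31435665), known as an activator of the chemokine gene CCL5 in T cells, had a CPM of 12.6 and 3.67 without drug and 14.1 and 12.9 with doxorubicin. Untreated replicate 2 was the low library, and both treated libraries lay within 1.12-fold of untreated replicate 1. Its log2FC of 0.58 (SE 0.67, adjusted p 0.825, edgeR) became -0.04 (SE 0.28) without untreated replicate 2 and 1.80 (SE 0.31) without untreated replicate 1.

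KLF14 (ENSG00000266265, chromosome 7, 130730697 to 130734207) is a gene of 1 exon, expressed from the maternal copy and linked to fat tissue metabolism. The study assigned it to a p53-bound enhancer, in a list limited to mRNAs that it called as changed in these libraries, so its place there is not independent evidence of a change. It had 4 and 73 counts without drug and 13 and 13 counts with doxorubicin. The CPM was 0.11 (95% Poisson interval 0.03 to 0.28) and 2.53 (1.98 to 3.18) in untreated cells, against 0.38 (0.20 to 0.65) and 0.47 (0.25 to 0.81) in treated cells. Untreated replicate 2 was 22.9-fold over untreated replicate 1, the widest gap between replicates among the 10 genes, and the treated libraries lay between them. The log2FC was -1.77 (SE 1.32, adjusted p 0.796, edgeR). It was 1.76 (SE 1.14, adjusted p 0.382) without untreated replicate 2, and without untreated replicate 1 it was -2.65 (SE 0.56).

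The replicates were compared in the same way for all genes, as the difference of log2(CPM + 1). The median gap of the 10 genes was 1.07 between the untreated libraries and 0.33 between the doxorubicin libraries, against 0.62 and 0.19 over all 17479 genes. The untreated gap was the larger one in 8 of the 10 genes (14101 of all 17479), the exceptions being KLF5 and KLF11. At least a 2-fold gap on this scale was found between the untreated libraries in 6 of the 10 (KLF2, KLF3, KLF4, KLF10, KLF13 and KLF14, with 30.9% of all genes) and between the treated libraries in 0 (0.263% of all). Untreated replicate 2 was the highest library for KLF4, KLF10 and KLF14 and the lowest for KLF3, KLF5 and KLF13. Doxorubicin replicate 2 had a higher CPM than replicate 1 in 9 of the 10 genes (9757 of all 17479), the exception being KLF13.

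Sequence that a member shares with another gene can split its reads. Among the 50-base stretches of the members' GENCODE transcripts, 0 were found in any other gene for KLF2, KLF5, KLF6, KLF9, KLF10 and KLF14, and the KLF2 pseudogenes had at most 14 counts. The shared part was 3.69% for KLF3, 7.02% for KLF4, 8.08% for KLF11 and 0.34% for KLF13, most of it, for KLF3, KLF4 and KLF11, with a transcript of the opposite strand at the same locus.

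Of the 17 other KLF and SP genes, 13 were tested and 0 were called (0.00% of all genes). At an unadjusted p under 0.05 (edgeR quasi-likelihood test) there were 0, against 4.02% of all genes. The log2FC was above 0 for 6 and below for 7 (50.8% of all genes above 0, median -0.02). Without untreated replicate 2, 9 were above 0 and 4 below (54.3% of all genes above 0, median 0.18). KLF7, a close relative of KLF6, had a CPM of 7.44 and 5.71 without drug against 12.1 and 14.7 with it, with both treated libraries higher, and a log2FC of 0.86 (SE 0.43) with all libraries and 0.69 (SE 0.29, adjusted p 0.150) without untreated replicate 2. KLF16, a SIN3A-binding member with a CPM between 38.3 and 44.4, had a log2FC of -0.02 (SE 0.34). SP1 and SP3, general activators that compete for the same GC boxes, had -0.09 (SE 0.33) and 0.29 (SE 0.38). SP2 and SP6 were highest in untreated replicate 2, at a CPM of 114 and 40.6 against 28.6 to 32.9 and 2.50 to 4.34 in the other libraries. Their log2FC values of -1.29 and -2.80 became 0.03 and 0.18 without it. Without untreated replicate 1 they were -1.90 and -3.63, and those of KLF7, KLF16, SP1 and SP3 were 1.14, 0.12, 0.08 and 0.60. KLF15, which is named because it was the only gene of this list called without untreated replicate 2, a choice made with its values known, had a CPM of 0.22 and 5.30 without drug against 0.35 and 1.96 with it, and a log2FC of -1.44 (SE 1.47) that became 2.18 (SE 0.73, adjusted p 0.0352) in that fit. Its treated libraries were far apart, and untreated replicate 2 was higher than both. The log2FC of KLF15 was -2.34 without untreated replicate 1, so its direction depended on which untreated library was used.

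Partners of KLF proteins were called in 0 of 11 genes tested (0 at an unadjusted p under 0.05, edgeR), against 0.00% and 4.02% of all genes. The log2FC was above 0 for 9 and below for 2 (50.8% of all genes above 0, median 0.31). Without untreated replicate 2, 2 were above 0 and 9 below (54.3% of all genes above 0, median -0.21). CTBP1, the corepressor of KLF3, had a CPM of 128 and 45.6 without drug against 127 and 118 with it. SIN3B had 149 and 88.3 against 164 and 165, and HDAC1, a deacetylase of these complexes, 141 and 64.3 against 121 and 126. The acetylases EP300 and CREBBP had a CPM of 118 and 109 in untreated replicate 1, 44.7 and 22.3 in untreated replicate 2 and between 89.8 and 104 in the treated libraries. In these 5 genes untreated replicate 2 was the low library and the other 3 were close together. Without untreated replicate 1 the log2FC was 1.34 for CTBP1, 0.81 for SIN3B and 0.85 for HDAC1. It was 1.10 for EP300 and 1.94 for CREBBP in that fit. HDAC2 (124 to 163) was highest in untreated replicate 2, with a log2FC of -0.33 (SE 0.30), and -0.33 without untreated replicate 1.

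Of 14 genes that act upstream of KLF genes or proteins, 14 were tested and 0 were called (0.00% of all genes). At an unadjusted p under 0.05 (edgeR) there were 0, against 4.02% of all genes. The log2FC was above 0 for 11 and below for 3 (50.8% of all genes above 0, median 0.52). Without untreated replicate 2, 8 were above 0 and 6 below (54.3% of all genes above 0, median 0.04). TGFBR1, a receptor of TGF-beta, which induces KLF10, had a CPM of 212 and 42.1 without drug against 288 and 343 with it, with a log2FC of 1.15 (SE 0.73) that became 0.42 (SE 0.22, adjusted p 0.289). TGFBR2 and SMAD2, of the same pathway, had 0.39 and 0.48 with all libraries and -0.04 and -0.18 without untreated replicate 2. MEF2D, of the family that activates KLF2, had a CPM of 122 and 80.5 against 162 and 169 and a log2FC of 0.55 (SE 0.34), and 0.29 (SE 0.22) without untreated replicate 2. NR3C1, the glucocorticoid receptor, had 53.7 and 12.9 against 68.3 and 86.2 and a log2FC of 1.05 (SE 0.69), which became 0.38 (SE 0.24). SRF had a CPM of 120 and 280 against 104 and 119, a log2FC of -1.0 (SE 0.46), and -0.25 (SE 0.23) without untreated replicate 2. Without untreated replicate 1 the log2FC was 2.82 for TGFBR1, 1.11 for TGFBR2 and 1.89 for SMAD2. It was 0.95 for MEF2D, 2.49 for NR3C1 and -1.41 for SRF in that fit.

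Of 10 genes known as targets of KLF factors, 8 were tested and 0 were called (0.00% of all genes). At an unadjusted p under 0.05 (edgeR) there were 0, against 4.02% of all genes. The log2FC was above 0 for 6 and below for 2 (50.8% of all genes above 0, median 0.35). Without untreated replicate 2, 8 of the 9 tested lay above 0 and 1 below (54.3% of all genes above 0, median 0.72). CDKN1A, the cell cycle inhibitor p21 and a target of KLF4 and KLF6 as well as of p53, had a CPM of 380 and 866 without drug against 1003 and 880 with it. Its log2FC of 0.44 (SE 0.44) became 1.16 (SE 0.22, adjusted p 3.4e-05) without untreated replicate 2, where it was called (1 of 9 tested, 4.53% of all genes), and 0.04 (SE 0.22, adjusted p 0.898) without untreated replicate 1. THBD, a target of KLF2 in endothelium, had a CPM of 1.49 and 5.30 without drug against 3.88 and 2.72 with it, and its log2FC turned from -0.18 (SE 0.76) to 1.01 (SE 0.39, adjusted p 0.113). CCND1, SMAD7, PDGFA and LGALS3 had log2FC values of 0.70, 0.25, 0.11 and -0.23 with all libraries and 0.10, 0.20, -0.16 and 0.03 without untreated replicate 2. Without untreated replicate 1 these were 1.84, 0.39, 0.53 and -0.37, and that of THBD was -0.76.

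**Figure D4:**
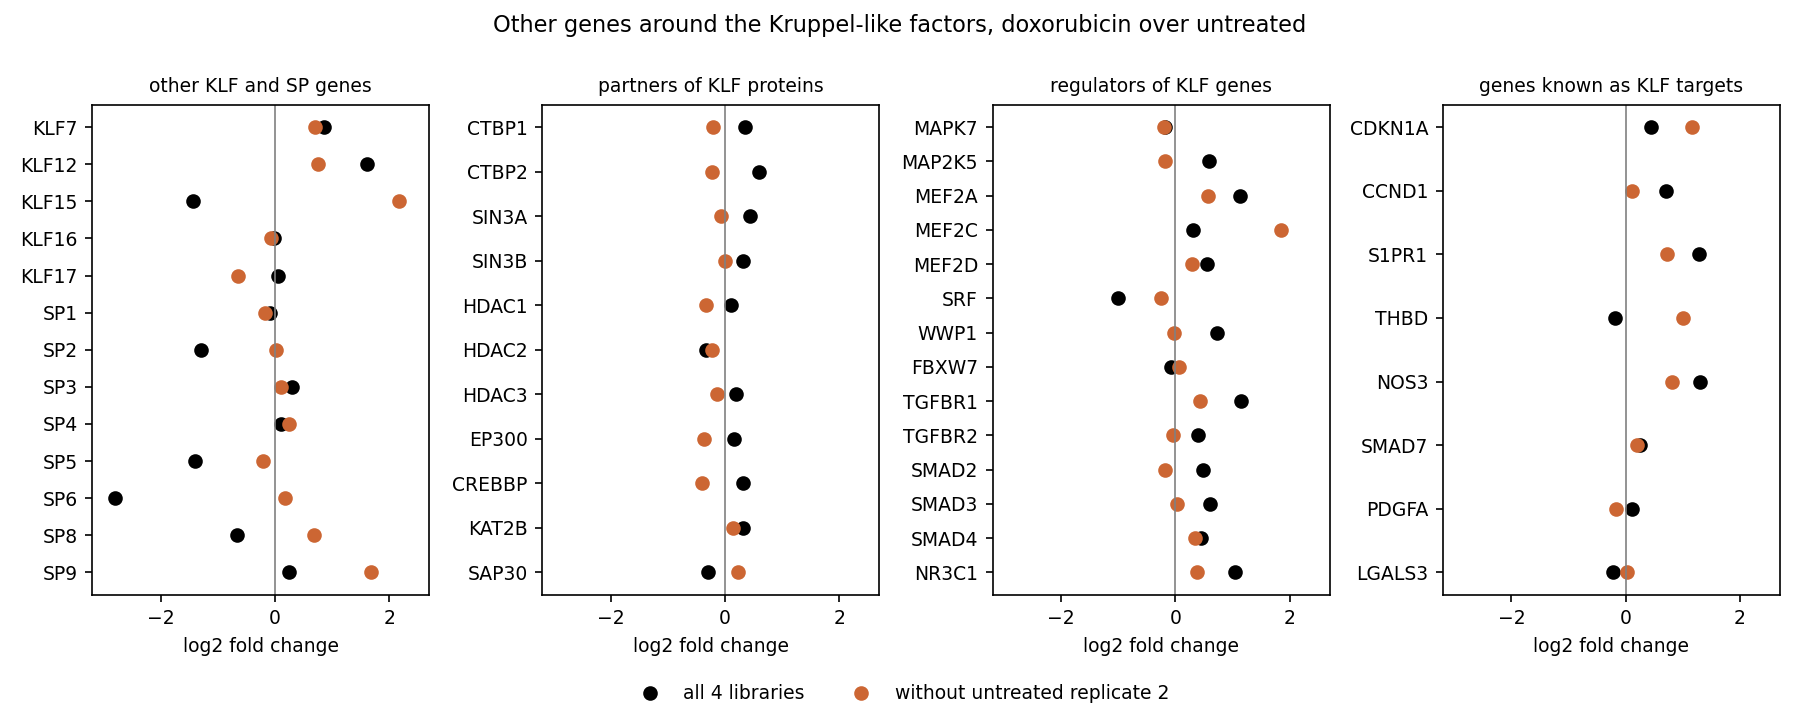
Log2FC (doxorubicin over untreated, edgeR) of the tested genes of 4 lists, with all 4 libraries (black) and without untreated replicate 2 (orange). The partners of KLF proteins move from a median of 0.31 to -0.21 and the upstream genes from 0.52 to 0.04, while SP6 moves from -2.80 to 0.18.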

How the data were processed

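RNA-seq of 4 libraries was used, 2 untreated and 2 with doxorubicin, grouped by their titles. The authors filtered reads with FastQC and Cutadapt, mapped them to hg38 with HISAT2, counted them with HTSeq and deposited counts, whole numbers without normalization. The file headers name the GENCODE release 31 basic annotation. Versions and strand setting are not given in the sources used here. The fit used edgeR 4.0.16 in R 4.3.3, with filterByExpr, TMM scaling and the default form of glmQLFit and glmQLFTest (prior count of 0.125), over all 17479 genes that passed the filter, with DESeq2 1.42.0 as an alternative. The script was tested on simulated data, with a pass required only at a spread between replicates far below that of these libraries. That pass does not show how many changes the fit can call in these libraries. Positions, exon lengths and transcripts came from GENCODE release 44 (GRCh38) by symbol, and promoters from RefSeq.

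The members and lists were chosen with earlier results of these data known. The rule for named genes took the 10 members and, from each further list, the 6 genes with the most counts. Of the 17 other family genes, 16 were listed in the counts. The deviations of libraries with the same number correlated at only 0.02, and the numbers were not used as pairs. The depth was 27572740 to 36272180 counts per library, and 3 counts correspond to a CPM between 0.0827 and 0.109. CPM and intervals were computed in Python 3.11.15. The SE of a log2FC was computed here from the fitted values, dispersion and quasi-likelihood variance of each edgeR fit. The test itself returns none. Alternatives were other tests, scalings and filters, a block on the replicate number and each library left out. The newer form of the quasi-likelihood fit, the combined settings without untreated replicate 2 and the TMM-scaled CPM were chosen after seeing the data.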

Additional observations from a re-analysis of the deposited data

How the results depend on the processing

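With all 4 libraries, 0 of the 10 KLF genes were called under any test, scaling, filter or replicate block tried. Over all genes edgeR's quasi-likelihood test called 0 (703 at an unadjusted p under 0.05), its exact test 38, its likelihood ratio test 64, DESeq2 160, the fit with no filter 488 and the fit with the replicate block 27. The causes were not tested. With 1 library left out, between 0 and 8316 genes and between 0 and 4 KLF genes were called, the highest without untreated replicate 1. Without untreated replicate 2, 831 genes and 1 KLF gene were called, and there RLE factors gave 771 and 1, DESeq2 321 and 1, and library size alone 1075 and 2, KLF6 (1.03) joining KLF2. The lone untreated library was assumed to vary like the doxorubicin pair. The log2FC of KLF10 (-0.068) turned to 0.090 with library size alone, 0.029 with no filter and 0.038 with the replicate block, which changed no call of a KLF gene. With 1 library left out, the sign changed for KLF4 (-1.31 to 0.82), KLF9 (-0.16 to 0.65), KLF10 (-0.46 to 0.63), KLF11 (-0.038 to 0.33), KLF13 (-0.039 to 1.80) and KLF14 (-2.65 to 1.76). Without untreated replicate 2, RLE factors, library size alone and DESeq2 gave 0.78, 0.97 and 0.76 for KLF4, 0.59, 0.78 and 0.57 for KLF10, 1.72, 1.90 and 1.74 for KLF14 and -0.078, 0.11 and -0.098 for KLF13. There the adjusted p of KLF4 (0.0404) became 0.0559 with RLE factors and 0.0735 with DESeq2. KLF2, KLF3, KLF5 and KLF6 kept their sign with each library left out. KLF14 was removed by a minimum CPM of 1 in 2 libraries.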
